A study of Mus musculus with 1019 samples.

Results

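Transcripts of 9 genes of endosomal proteolysis and antigen presentation were followed in sorted regulatory T cells (Tregs): the cathepsin genes Ctss, Ctsb, Ctsd and Ctsl, the cathepsin inhibitor gene Cst3, the invariant chain gene Cd74 and the MHC class II chain genes H2-Aa, H2-Ab1 and H2-Eb1. The table held 23725 gene rows, of which 13281 had at least 1 count, and all 9 genes were among the latter. The genes were selected by name, after the UMI counts of the spleen and adipose libraries had placed Ctss among the genes lowest in adipose tissue. The ratios between the tissues given here are therefore a description and carry no test. Of the 9 genes, 5 had 50 or more UMIs over the 3 libraries (Ctss, Ctsb, Ctsd, Cst3 and Cd74), and 4 had fewer (Ctsl, H2-Aa, H2-Ab1 and H2-Eb1).

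The study profiled single Tregs from spleen and from visceral fat (visceral adipose tissue, VAT) with inDrops, in which each cell's mRNA is copied in a droplet with a cell barcode and a unique molecular identifier (UMI), so that a UMI stands for 1 captured molecule. All mice were B6 males aged 20 months. Cells were sorted as DAPI-, TCRb+, CD4+ and CD25+; mechanical dissociation freed the spleen cells and a collagenase and dispase digest those of VAT, so tissue and dissociation cannot be told apart. The spleen library held 375 cells and 573622 UMIs, VAT library 2 held 330 cells and 556099 UMIs, and VAT library 3 held 314 cells and 548770 UMIs. Median UMIs per cell were 1423, 1565 and 1611.

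With 1 spleen library, and cells of a library not being replicates, no p-value is given. Intervals are exact 95% intervals of counting error alone, and they are too narrow wherever UMIs of a gene gather in few cells. No label names an animal, and a tissue label of the spleen cells names both tissues while their source label names spleen. The replicate number of the spleen library also differs between label fields. Of 1016 distinct cell barcodes, 3 occurred in more than 1 library. Of the sorted markers, Cd4 had 400, 374 and 233 UMIs in spleen, VAT library 2 and VAT library 3. The same order is kept for every series of 3 values here. Il2ra, the CD25 gene, had 260, 614 and 555, which is 2.44 and 2.23 times its spleen level in VAT. Foxp3, which was not sorted on, had 221, 263 and 189.

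Antigen-presenting cells load peptides on MHC class II molecules in endosomes, where the invariant chain Cd74 first fills the groove and is then cut away in steps. Cathepsin S makes the last cuts in B cells and dendritic cells, cathepsin L does so in the thymic cortex, and cystatin C, the product of Cst3, inhibits both. Cathepsins B and D are general lysosomal proteases present in most cells, and mouse T cells are generally held to make little or no MHC class II.

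On GRCm38, the build of the deposited counts, Ctss lies on chromosome 3 at 95526786 to 95556403 on the plus strand. H2-Aa (34282744 to 34287823, minus strand), H2-Ab1 (34257689 to 34269419, plus strand) and H2-Eb1 (34305867 to 34316674, plus strand) lie side by side on chromosome 17.

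Upstream sequences are shown for Ctss, which differed most in UMIs between the tissues, and for H2-Aa and H2-Eb1, whose counts went in different directions. They come from RefSeq promoters on GRCm38.p6, which held an entry for 6 of the 9 genes, and each run is the 150 bases before the annotated start, 5′ to 3′ on the gene's strand. The Ctss run is chr3:95526636-95526785, the H2-Aa run chr17:34287824-34287973 and the H2-Eb1 run chr17:34305717-34305866. Capitals mark matches on either strand to GAAA, NN and GAAA in a row, a core of interferon response elements, in Ctss, and to CCAAT, the NF-Y box, in H2-Aa and H2-Eb1 (ATTGG is the same box on the opposite strand).
Ctss: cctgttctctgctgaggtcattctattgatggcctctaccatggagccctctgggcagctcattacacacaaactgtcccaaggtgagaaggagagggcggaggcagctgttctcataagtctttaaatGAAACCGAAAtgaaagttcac
H2-Aa: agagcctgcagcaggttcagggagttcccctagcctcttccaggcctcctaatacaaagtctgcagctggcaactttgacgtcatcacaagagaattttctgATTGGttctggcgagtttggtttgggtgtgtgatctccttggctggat
H2-Eb1: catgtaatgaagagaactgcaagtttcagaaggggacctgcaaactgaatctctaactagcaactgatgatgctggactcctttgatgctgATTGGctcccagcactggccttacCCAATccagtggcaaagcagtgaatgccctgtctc
The Ctss match begins 21 bases before the start, and a match to that motif lies within the 250 bases before the start of 2.98% of 32851 promoters. The CCAAT matches begin 48 bases before the start of H2-Aa and 59 and 35 bases before that of H2-Eb1, and 33.8% of promoters hold that motif. Both motifs were chosen after the sequences were seen, and a match is a run of letters, not a site shown to be bound.

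Ctss was abundant in the spleen library and nearly missing from both VAT libraries, with 206, 8 and 6 UMIs. Its level, in counts per 1000000 UMIs of the library (CPM), was 359 (interval 312 to 412) for spleen, and the VAT libraries stood at 14.4 (6.21 to 28.3) and 10.9 (4.01 to 23.8). The 2 VAT libraries overlapped in their intervals and the spleen library lay far above both. The spleen level exceeded those of VAT 25.0-fold (12.4 to 58.6) and 32.8-fold (14.8 to 90.5). Ranked by the larger of its 2 log2 ratios to spleen, Ctss had rank 9 from the lowest among the 4635 genes with 50 or more UMIs.

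The UMIs of Ctss were spread over many spleen cells. A Ctss UMI was seen in 128 of 375 spleen cells, or 34.1% (29.3 to 39.2), against 6 of 330 cells (1.82%) and 3 of 314 cells (0.955%) in VAT. With each cell thinned at random to 800 UMIs the shares were 21.6% (17.5 to 26.1), 1.21% and 0.955%. In spleen, 78 cells held 1 Ctss UMI, 32 held 2 and 18 held 3 or more, with at most 6 in a cell. Among the 130, 128 and 98 cells with a Foxp3 UMI, Ctss had 67, 5 and 1 UMIs, so the gap was also present in cells with a Treg-defining transcript. With all cells thinned to 800 UMIs, 107, 5 and 6 Ctss UMIs remained, with log2 ratios of -4.10 and -3.79 against -4.56 and -4.93 at full depth. The mean of 1.61 UMIs per positive spleen cell was above the 1.30 that independent placement of the 206 UMIs in cells of equal depth would give. Ctss UMIs thus gathered somewhat in particular cells, as did those of Ctsb in spleen (1.59 against 1.13). Differences in depth between cells add to such gathering. The sort leaves no cell type in the table that should lack Ctss, so no share from such cells can be set beside these.

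**Figure D1:**
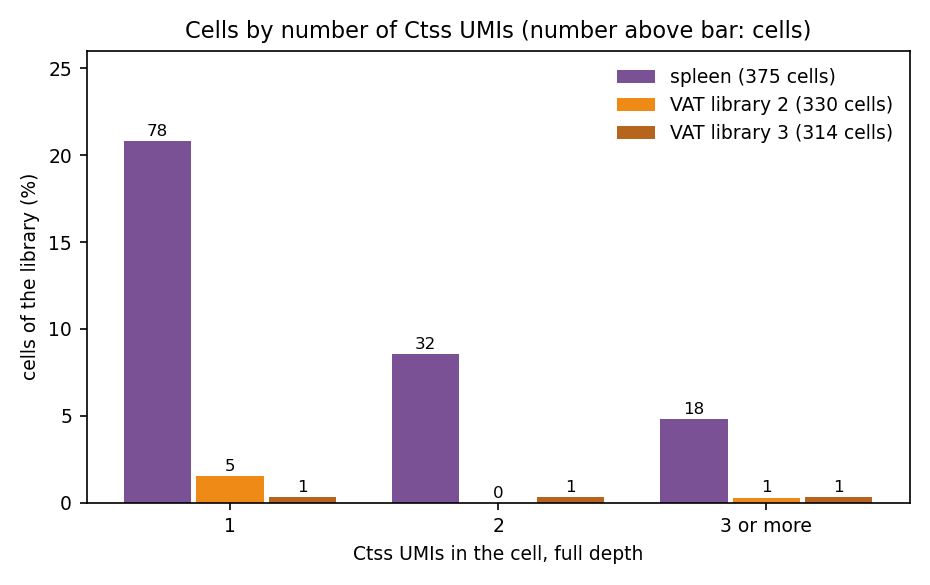
Share of the cells of each library (vertical axis, %) that held 1, 2, or 3 or more Ctss UMIs at full depth (horizontal axis), with the number of cells above each bar. The spleen bars stand for 78, 32 and 18 cells, and the VAT libraries have 6 and 3 cells with Ctss in all.

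The other cathepsin genes did not share this pattern. Ctsb had 97, 118 and 121 UMIs and was seen in 61, 82 and 73 cells, at 1.25 times (0.951 to 1.66) and 1.30 times (0.990 to 1.72) its spleen level in VAT. Ctsd, which encodes an aspartic protease, had 103, 122 and 100 UMIs in 79, 92 and 81 cells, at 1.22 times (0.932 to 1.60) and 1.01 times (0.763 to 1.35). The intervals of both genes include a ratio of 1 in both VAT libraries, so a difference was not detectable at this depth. For Ctsb in VAT library 3 this depended on the setting: the log2 interval left out 0 with TMM-scaled totals (0.07 to 0.87) and in Foxp3 cells alone (0.03 to 1.43). Thinned to 800 UMIs per cell, Ctsb was seen in 10.7%, 13.0% and 10.8% of cells and Ctsd in 12.8%, 14.8% and 11.5%, whereas the full-depth shares were 16.3%, 24.8% and 23.2% for Ctsb and 21.1%, 27.9% and 25.8% for Ctsd. Ctsl was rare everywhere, with 2, 7 and 6 UMIs, and its ratios of 3.61 (0.687 to 35.6) and 3.14 (0.561 to 31.8) cannot be read as a direction.

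Cst3, the cystatin C gene, was higher in VAT. It had 46, 112 and 118 UMIs, or 80.2 CPM (58.7 to 107), 201 CPM (166 to 242) and 215 CPM (178 to 258). The 2 VAT libraries were close to each other and their intervals did not reach that of spleen. The ratios to spleen were 2.51 (1.77 to 3.62) and 2.68 (1.89 to 3.86). Cst3 UMIs were found in 38, 81 and 80 cells, or 10.1%, 24.5% and 25.5%, and in 5.87%, 13.0% and 16.6% of cells after thinning to 800 UMIs. In the 146, 233 and 232 cells without any UMI of the B cell, plasma cell, macrophage and dendritic cell markers listed, Cst3 had 27, 80 and 91 UMIs and its log2 ratios of 0.70 and 0.86 no longer reached 2-fold.

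Cd74, the invariant chain gene, was lower in VAT, with 60, 8 and 14 UMIs in 42, 4 and 11 cells. These are 105 CPM (79.8 to 135), 14.4 CPM (6.21 to 28.3) and 25.5 CPM (13.9 to 42.8). The spleen interval lay above both VAT intervals, with folds of 7.27 (3.46 to 17.6) and 4.10 (2.26 to 7.94) between spleen and VAT. The shares of cells were 11.2%, 1.21% and 3.50% at full depth and 5.87%, 0.909% and 2.23% after thinning to 800 UMIs. In VAT library 2, 5 of its 8 UMIs came from 1 cell. Among cells with a Foxp3 UMI, Cd74 had 25, 0 and 2 UMIs.

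The 3 class II chain genes rested on few UMIs and did not move together. H2-Aa, which encodes the alpha chain of I-A, had 16, 1 and 0 UMIs in 12, 1 and 0 cells. It was 15.5-fold (2.41 to 650) lower in VAT library 2 and at least 5.10-fold lower in VAT library 3, where the 0 was set to the floor of 3 UMIs for that library. These folds are formed differently, a ratio on 1 UMI and a lower bound, and their sizes cannot be compared between the libraries. H2-Ab1, the beta chain of I-A, had 10, 2 and 0 UMIs, both VAT library 2 UMIs in the same cell, and was 4.85-fold (1.03 to 45.5) and at least 3.19-fold lower, with the same limit.

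H2-Eb1, the beta chain of I-E, went the other way in 1 of the VAT libraries. It had 6, 6 and 22 UMIs in 5, 6 and 12 cells, at 1.03 times (0.276 to 3.86) the spleen level in VAT library 2 and 3.83 times (1.51 to 11.6) in VAT library 3. The UMIs of VAT library 3 gathered in few cells: 9 cells held 1 UMI and 3 cells held 3 or more, 1 of them 6. H2-Eb1 was seen in 1.82% of VAT library 2 cells (0.670 to 3.92) and in 3.82% of VAT library 3 cells (1.99 to 6.58). These intervals overlap, and the 2 shares were not compared directly. By UMIs, VAT library 3 stood at 3.72 times (1.46 to 11.2) VAT library 2, an interval that is too narrow because the UMIs gathered in few cells. B6 mice carry an MHC haplotype in which the alpha chain of I-E is not made, so that H2-Eb1 transcripts have no surface partner.

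By a rule of at least 2-fold in the same direction in both VAT libraries, 2 of the 5 genes with 50 or more UMIs were lower (Ctss and Cd74), 1 was higher (Cst3) and 2 were neither (Ctsb and Ctsd). Over all 4635 genes with 50 or more UMIs the same rule took 4.40% as lower and 10.3% as higher, and the median log2 ratio was 0.04 and -0.02. The genes had been selected on this contrast, so nothing is read from their shares. When library totals omitted ribosomal protein genes, all genes split into 338 lower and 383 higher in place of 204 and 478, and the 5 genes kept their counts of 2 lower and 1 higher.

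**Figure D2:**
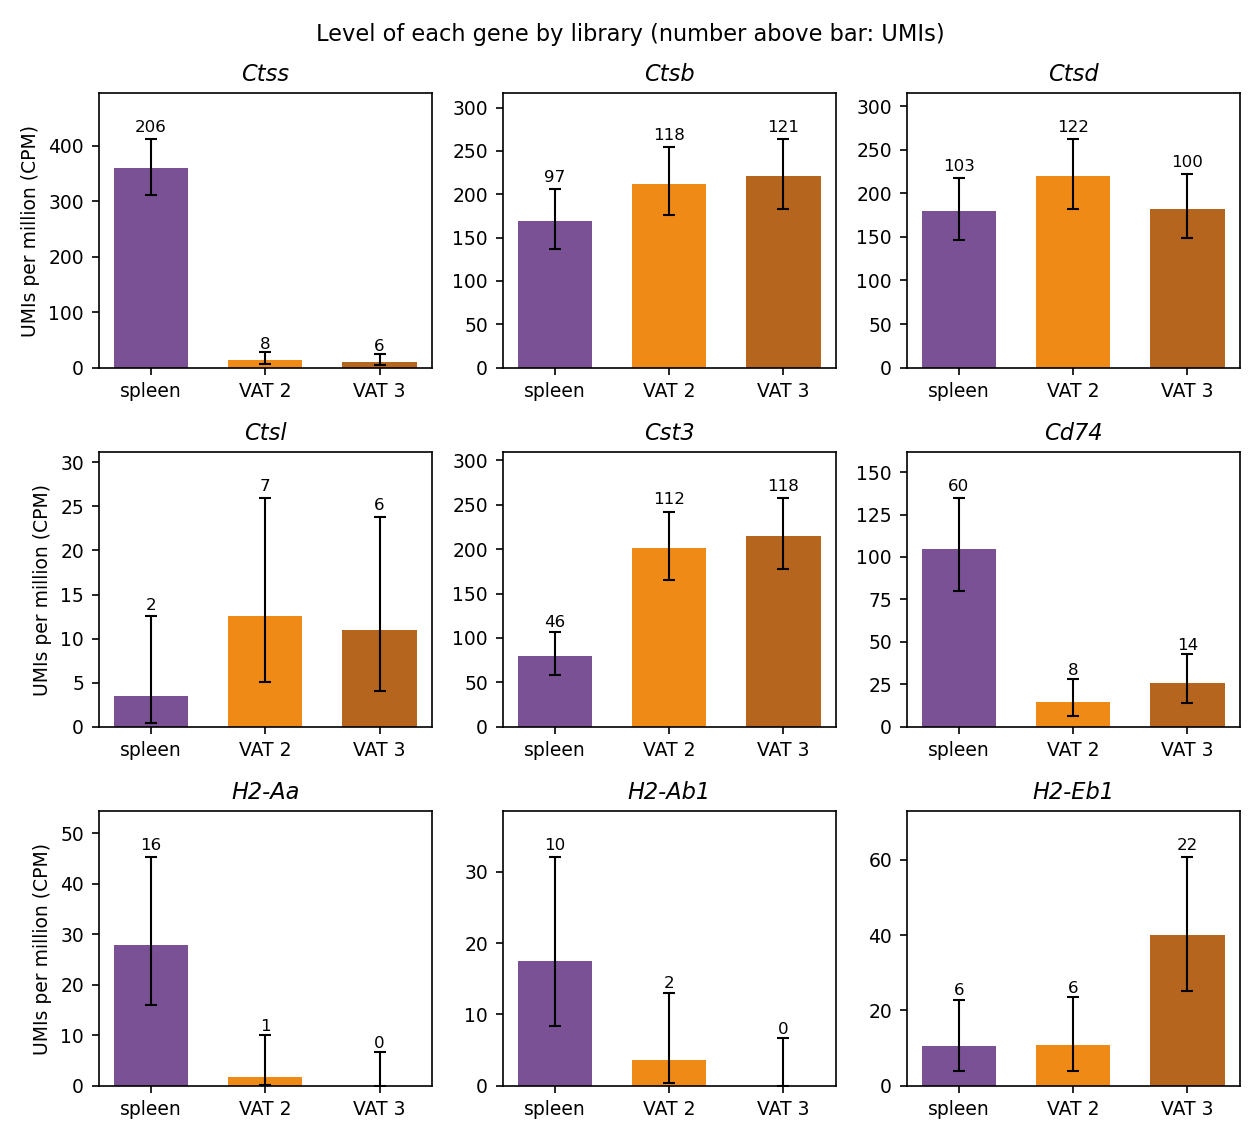
Level of each of the 9 genes (vertical axis, CPM, on a scale of its own in each panel) in the spleen library, VAT library 2 and VAT library 3 (horizontal axis); bars are the library's value, whiskers exact 95% Poisson intervals of counting error, and numbers the UMIs. Ctss and Cd74 stand highest in spleen, Cst3 stands lowest there, and H2-Eb1 stands out in VAT library 3 with 22 UMIs.

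The genes whose levels over the 3 libraries lay nearest to the pattern of Ctss, by Euclidean distance between centred log2 CPM among genes with 50 or more UMIs, were Lrrc32 (52, 2 and 1 UMIs), which encodes the TGF-beta anchor GARP of Tregs, and Evl (165, 7 and 4), an actin regulator. Gpr18 (60, 2 and 1), a G protein-coupled receptor gene, Gm8369 (63, 2 and 1) and Ift80 (63, 2 and 1), an intraflagellar transport gene, followed. Likeness over 3 libraries is a weak measure, and each of these genes had 7 UMIs or fewer in either VAT library.

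Other proteases of the same compartment were also measured. Of 12 further cathepsin and lysosomal protease genes in the table, 5 had 50 or more UMIs; 2 of these were higher in both VAT libraries, 0 were lower, and the medians of their log2 ratios were 0.55 and 0.57. Over all genes 10.3% were higher and 4.40% lower, so 0 lower of 5 says nothing about cathepsin genes. Ctsh, an aminopeptidase, had 2, 48 and 53 UMIs and was 24.8-fold (6.49 to 210) and 27.7-fold (7.30 to 235) higher in VAT. Ctsz, a carboxypeptidase, had 16, 50 and 42 UMIs and was 3.22-fold (1.81 to 6.06) and 2.74-fold (1.51 to 5.23) higher. The Ctsh folds rest on 2 spleen UMIs, and their intervals are wide. Ctsw, the cathepsin of cytotoxic lymphocytes, had 25, 1 and 0 UMIs and missed the minimum of 50; its counts went the way of Ctss.

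Among further cysteine protease inhibitors, 2 had 50 or more UMIs and they moved in opposite directions. The 2-fold rule took 10.3% of all genes as higher and 4.40% as lower, and 2 genes are too few to set beside these shares. Cstb, the cytosolic cystatin B gene, had 23, 51 and 54 UMIs and was 2.29-fold (1.37 to 3.92) and 2.45-fold (1.48 to 4.19) higher in VAT, the direction of Cst3. Cst7, which encodes cystatin F, an inhibitor in the lysosomes of immune cells, had 83, 33 and 32 UMIs and was 2.44-fold (1.61 to 3.77) and 2.48-fold (1.63 to 3.86) lower, the direction of Ctss.

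Most genes of the lysosome were neither higher nor lower by the 2-fold rule, as were most of all genes with 50 or more UMIs. Nothing particular to lysosomal genes is read from this. Of 12 genes of lysosomal membrane, acidification and activators with 50 or more UMIs, 1 was higher, 1 was lower and 10 were neither, with medians of 0.12 in both VAT libraries; the shares over all genes were the 10.3% higher and 4.40% lower given above. Npc2, a cholesterol carrier (374, 322 and 319 UMIs), and Psap, the precursor of the saposins (153, 142 and 140), were among the 10. The higher gene was Grn, the progranulin gene (21, 47 and 47), and the lower was Igf2r, the cation-independent mannose 6-phosphate receptor that carries cathepsins to lysosomes (58, 12 and 17), which was 4.69-fold (2.49 to 9.59) and 3.26-fold (1.87 to 5.98) lower.

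**Figure D3:**
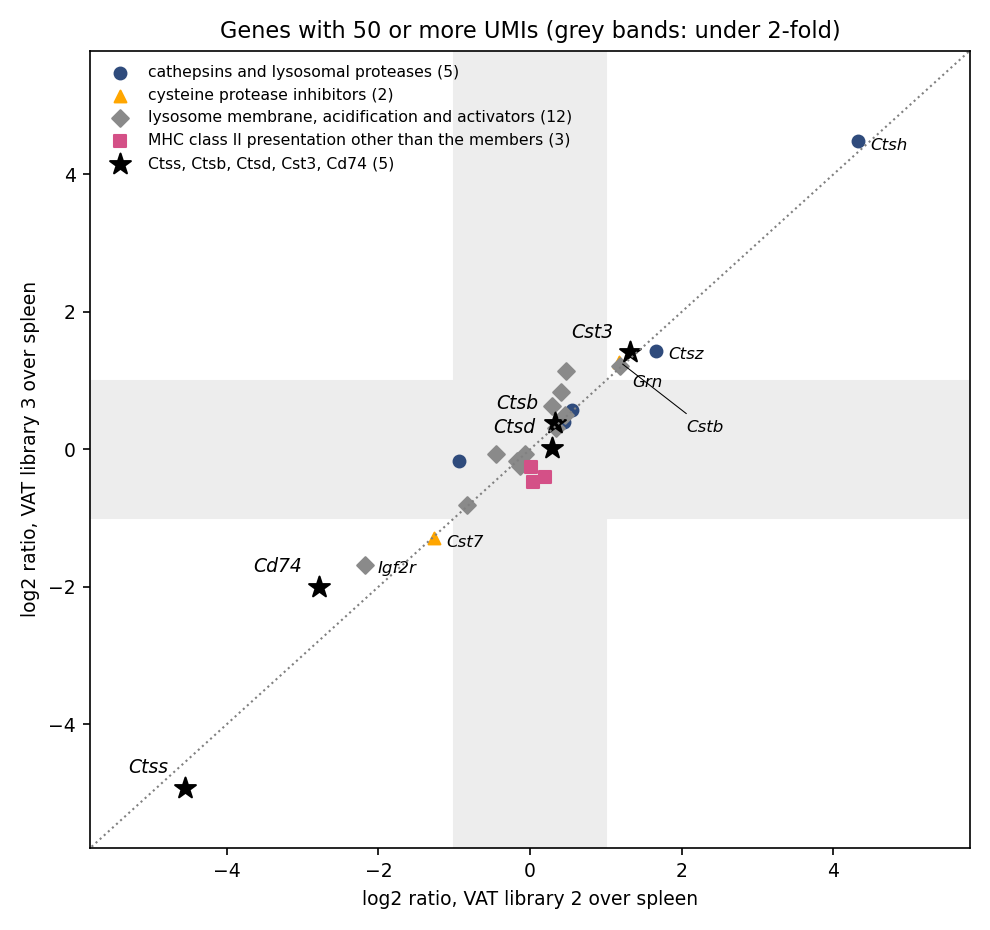
log2 ratio to spleen in VAT library 2 (horizontal axis) and VAT library 3 (vertical axis) of the genes with 50 or more UMIs: stars are Ctss, Ctsb, Ctsd, Cst3 and Cd74, other symbols the further pathway genes by list, and grey bands mark less than 2-fold. Ctss and Cd74 lie at the lower left, and Ctsh lies farthest to the upper right.

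The rest of the class II pathway was thinly covered. Of 19 genes listed, 3 had no UMI in any library (H2-DMb1, H2-DMb2 and Cd40). The 3 with 50 or more UMIs, the transcription factor genes Nfyb, Nfyc and Creb1, were neither higher nor lower. With 10.3% of all genes higher and 4.40% lower, this says nothing about the class II pathway. Genes below that minimum included H2-Ob, a chain of the loading modulator H2-O, with 33, 3 and 0 UMIs, its partner H2-Oa with 10, 0 and 0, and the costimulatory gene Cd86 with 26, 1 and 1. Ciita, the master regulator of class II transcription, had 5, 2 and 6 UMIs, which give no direction.

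UMIs of Cd74 and the class II chains gathered in some cells. Cd74 had 1.43 UMIs per positive cell in spleen, against 1.08 with independent placement, and H2-Eb1 had 1.83 in VAT library 3, against 1.04. This was not particular to these genes, and the placement takes no account of depth. In spleen Ctsb (1.59 against 1.13), Ctsd (1.30 against 1.14) and Cst3 (1.21 against 1.06) exceeded it too, while Ctsl, with 2 UMIs, did not. A UMI of Cd74 or a chain was found in 62, 11 and 23 cells, and 5, 1 and 0 cells held UMIs of 2 of these 4 genes. The number that independent placement would give was not computed for such pairs. No cell held more than 5, 5 and 6 such UMIs, at most 0.370%, 0.227% and 0.396% of the UMIs of a cell. In spleen 5 of 42 Cd74 cells also held a chain UMI.

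Markers of cells that normally express these genes were measured in the same libraries. For B cells, 14 of 17 listed markers had a gene row, and the immunoglobulin genes Ighm, Ighd and Igkc had none, so their RNA could not be looked for. Of the 14, 9 had any UMI, and they summed to 40, 14 and 14 UMIs, of which Cd22 gave 20, 9 and 12. Bank1 had 6, 0 and 0, Fcer2a 6, 3 and 1, Cr2 4, 1 and 0, and Ms4a1 0, 0 and 1. Cd79a, Pax5 and Ebf1 were at 0 in all libraries. For macrophages and monocytes, 10 of 18 markers had any UMI and the list summed to 296, 71 and 61 UMIs. Hmox1 had 10, 5 and 0, Vcam1 5, 0 and 0, and Lyz2 0, 1 and 1. Cd14, Adgre1, C1qa, C1qb, C1qc, Marco and Mrc1 were at 0 in all libraries. For dendritic cells, 4 of 9 had any UMI and the list summed to 35, 32 and 26, of which Xcr1 gave 27, 20 and 18 and Siglech 7, 11 and 8. Itgax, Flt3, Zbtb46 and Clec9a were at 0 in all libraries.

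Within the macrophage list 2 genes moved with Ctss: Ms4a6c (221, 57 and 46 UMIs), which was lower in VAT by folds of 3.76 (2.80 to 5.12) and 4.60 (3.33 to 6.46), and the NADPH oxidase gene Cybb (48, 2 and 8), 23.3-fold and 5.74-fold lower. Erythroid RNA was also seen in spleen: the erythroid list summed to 116, 1 and 1 UMIs, of which Hba-a2, a globin gene with a near-identical copy, gave 73, 0 and 0. The lists for CD8 T and NK cells (38, 40 and 39), adipocytes and stroma (31, 2 and 4, with Pecam1 at 29, 1 and 2), plasma cells (4, 0 and 7) and neutrophils (2, 0 and 0) were low. The part of these transcripts in the levels of Ctss was not tested beyond the cell subsets that follow. Among the 146, 233 and 232 cells without a UMI of any listed B cell, plasma cell, macrophage or dendritic cell marker, Ms4a6c and Cybb included, Ctss had 92, 3 and 6 UMIs and its log2 ratios were -5.57 and -4.70. Among cells without a UMI of those B cell, plasma cell, macrophage and dendritic cell markers that totalled under 20 UMIs (335, 316 and 305 cells, a subset chosen after seeing the data that keeps cells with Ms4a6c or Cybb), Ctss had 186, 8 and 6 UMIs and its log2 ratios were -4.52 and -4.91, against -4.56 and -4.93 in all cells.

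T cell and Treg transcripts were then compared between spleen cells with and without Ctss. Every cell had been sorted as TCRb+, CD4+ and CD25+, so both classes could hold T cell transcripts wherever the Ctss UMIs came from. The source of the Ctss UMIs in these cells was not tested. The 128 spleen cells with a Ctss UMI and the 247 without had median depths of 1427 and 1422 UMIs, and the 9 genes were removed and each cell thinned to 750 UMIs, which left out no cell. Every one of the 128 cells held at least 2 UMIs from the lists of T cell transcripts (18 genes in the table) and Treg transcripts (16 genes). The median was 9.5 such UMIs in cells with Ctss and 9.0 in cells without, and 1 of 128 and 4 of 247 cells held no T cell transcript. No Treg transcript was found in 10 of 128 and 23 of 247 cells.

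Summed over the lists, T cell transcripts were as abundant in both classes within counting error. Cells with Ctss held 5.82 T cell UMIs per cell and cells without held 5.66, a ratio of 1.03 (0.940 to 1.13). Treg transcripts stood at 4.06 and 3.59 UMIs per cell, a ratio of 1.13 (1.01 to 1.26), but a second random thinning gave 1.07 (0.955 to 1.20), so whether this interval reaches 1 depends on the draw. The 50 cells with 2 or more Ctss UMIs gave 1.14 (1.002 to 1.28) for T cell and 1.16 (0.996 to 1.36) for Treg transcripts against the 247 cells without, and none of the 50 lacked a T cell transcript.

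Foxp3 and Il2ra were found at like shares in both classes. Foxp3, the lineage factor of Tregs, was seen in 23.4% (16.4 to 31.7) of cells with Ctss and 21.1% (16.1 to 26.7) of cells without, and Il2ra, which encodes CD25, in 21.9% (15.1 to 30.0) and 21.1% (16.1 to 26.7). Cd3g was seen in 20.3% and 21.1%, Cd3e in 18.8% and 13.4%, and Lck in 43.8% and 44.9%. Of the 18 T cell genes 8 had a ratio of UMIs per cell above 1 and 10 below, and of the 16 Treg genes 11 were above and 5 below. The same split over all genes was not taken. Their median log2 ratio was 0.04, over the 2277 genes with 20 or more UMIs after thinning.

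For 2 of the T cell and 3 of the Treg genes, named here because of their values, the counting interval left out 1. The share of all genes with such an interval was not computed, so nothing is read from these counts. Cd4 (ratio 1.57, 1.18 to 2.09), Icos (1.74, 1.19 to 2.55), Ctla4 (2.47, 1.27 to 4.85) and Tnfrsf4 (1.64, 1.08 to 2.49) were higher in cells with Ctss, and Lrrc32 (0.309, 0.0781 to 0.894) was lower. Cd4 was seen in 34.4% (26.2 to 43.3) of cells with Ctss and 20.2% (15.4 to 25.8) of cells without, and Ctla4 in 13.3% (7.93 to 20.4) and 6.07% (3.44 to 9.82). By the 2-fold rule in genes with 20 or more UMIs after thinning, 0 of 18 T cell genes were higher or lower, and of 13 Treg genes 1 was higher and 1 lower, where 4.66% of all 2277 genes were higher and 6.06% lower.

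**Figure D4:**
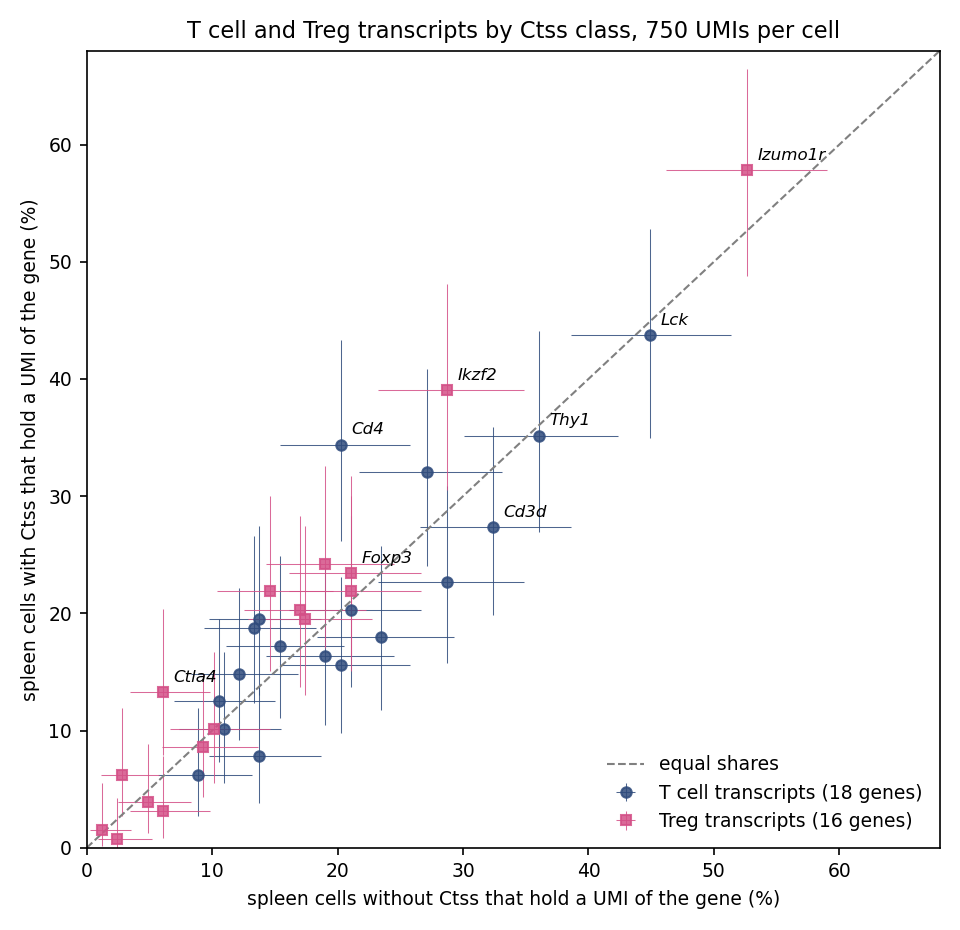
Share of spleen cells that held a UMI of each T cell (circles, 18 genes) or Treg transcript (squares, 16 genes), in cells without Ctss (horizontal axis, %) and with Ctss (vertical axis, %), each cell thinned to 750 UMIs; lines are exact 95% binomial intervals and the dashed line marks equal shares. Most genes lie near the line, and Cd4 lies above it at 34.4% against 20.2%.

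Markers of other cell types were not detectably more abundant in the cells with Ctss. B cell markers summed to 6 UMIs in the 128 cells with Ctss and 17 in the 247 without, a ratio per cell of 0.681 (0.220 to 1.81). Cd22 gave 5 and 6 of these UMIs, and without it, an alternative chosen after seeing the data, 1 and 11 UMIs gave 0.175 (0.00408 to 1.21). Macrophage and monocyte markers summed to 49 and 94, a ratio of 1.01 (0.697 to 1.44). Dendritic cell markers summed to 2 and 16, a ratio of 0.241 (0.0269 to 1.03). The macrophage value was mostly Ms4a6c, seen in 24.2% of cells with Ctss and 25.1% of cells without; without that gene, an alternative chosen after seeing the data, 16 and 19 UMIs gave a ratio of 1.62 (0.782 to 3.34).

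The other genes of the set were then compared between spleen cells with and without Ctss. Here the classes were set after all cells were thinned to 800 UMIs, which gave 81 and 294 cells in place of 128 and 247. Cells that lost their Ctss UMIs by thinning counted as without, which can blur a difference. Ctsb was seen in 9 of 81 cells with Ctss (11.1%, 5.21 to 20.0) and in 31 of 294 cells without (10.5%, 7.28 to 14.6). Cd74 was seen in 6 of 81 (7.41%, 2.77 to 15.4) and 16 of 294 (5.44%, 3.14 to 8.69), and Cst3 in the same numbers of cells. Ctsd was seen in 13 of 81 (16.0%, 8.83 to 25.9) and 35 of 294 (11.9%, 8.43 to 16.2). These intervals overlap, and Ctsl, H2-Aa, H2-Ab1 and H2-Eb1 were seen in too few cells to compare. Cd74 or a class II chain was seen in 8.64% (3.55 to 17.0) and 9.18% (6.14 to 13.1).

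The 2277 genes with 20 or more UMIs after thinning were ranked by their ratio between spleen cells with and without Ctss. UMIs are given in that order. Those with the highest ratio were Mff, a mitochondrial fission factor (16 and 5), and the TGF-beta receptor gene Tgfbr2 (17 and 8). Ptbp3 (20 and 10), Susd6 (19 and 10) and Exosc3 (13 and 7) followed. Those with the lowest were Ddx58, which encodes the RNA sensor RIG-I (0 and 22), Ncoa1 (1 and 19), Rsf1 and Ndufs1 (2 and 23 each) and Tacc1 (2 and 22). All 10 rested on few UMIs, and none is a marker of another cell type in the lists used. Of those lists only 2 macrophage genes and 1 erythroid gene had enough UMIs to be ranked, so their absence here shows little.

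The same comparison was made for every gene with at least 20 cells in both classes. In spleen, cells with Cd74 held T cell transcripts at 1.11 times (0.972 to 1.26) and Treg transcripts at 1.14 times (0.969 to 1.34) the level of the other cells. Single genes in Cd74 cells went both ways, with Lck at 1.53 times (1.15 to 2.01) and Thy1, a T cell surface gene, at 0.393 times (0.200 to 0.699). In cells with Cd74 or a chain, Thy1 was at 0.408 times (0.241 to 0.652), Cd3e at 0.240 times (0.0483 to 0.735) and Cd4 at 1.83 times (1.32 to 2.50). Cd74 cells also held lymphoid homing and resting T cell transcripts at 0.623 times (0.438 to 0.864) and tissue Treg transcripts at 2.04 times (1.35 to 3.02).

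In spleen, cells with Ctsb held T cell transcripts at 0.934 times (0.828 to 1.05) and Treg transcripts at 1.35 times (1.18 to 1.53), but in VAT the latter ratio was 1.10 (0.968 to 1.25) and 0.987 (0.848 to 1.15). Cells with Ctsd held T cell transcripts at 1.27 times (1.15 to 1.40) in spleen, 1.21 times (1.07 to 1.35) in VAT library 2 and 1.05 times (0.927 to 1.19) in VAT library 3. Their Treg ratios were 1.09 (0.963 to 1.24), 0.888 (0.778 to 1.01) and 1.19 (1.04 to 1.37).

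Cells with Cst3 held T cell transcripts at 0.9997 times (0.865 to 1.15) the level of the other cells in spleen, 1.09 times (0.962 to 1.23) in VAT library 2 and 0.832 times (0.728 to 0.950) in VAT library 3, so no direction was shared by the 3 libraries. Their Treg ratios were 1.27 (1.08 to 1.49), 0.880 (0.766 to 1.01) and 1.08 (0.935 to 1.25). The 23 cells of VAT library 3 with Cd74 or a chain gave 0.874 (0.692 to 1.09) for T cell and 1.06 (0.825 to 1.34) for Treg transcripts. The lowest of the ratios over the T cell and Treg lists was the 0.832 of Cst3.

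**Figure D5:**
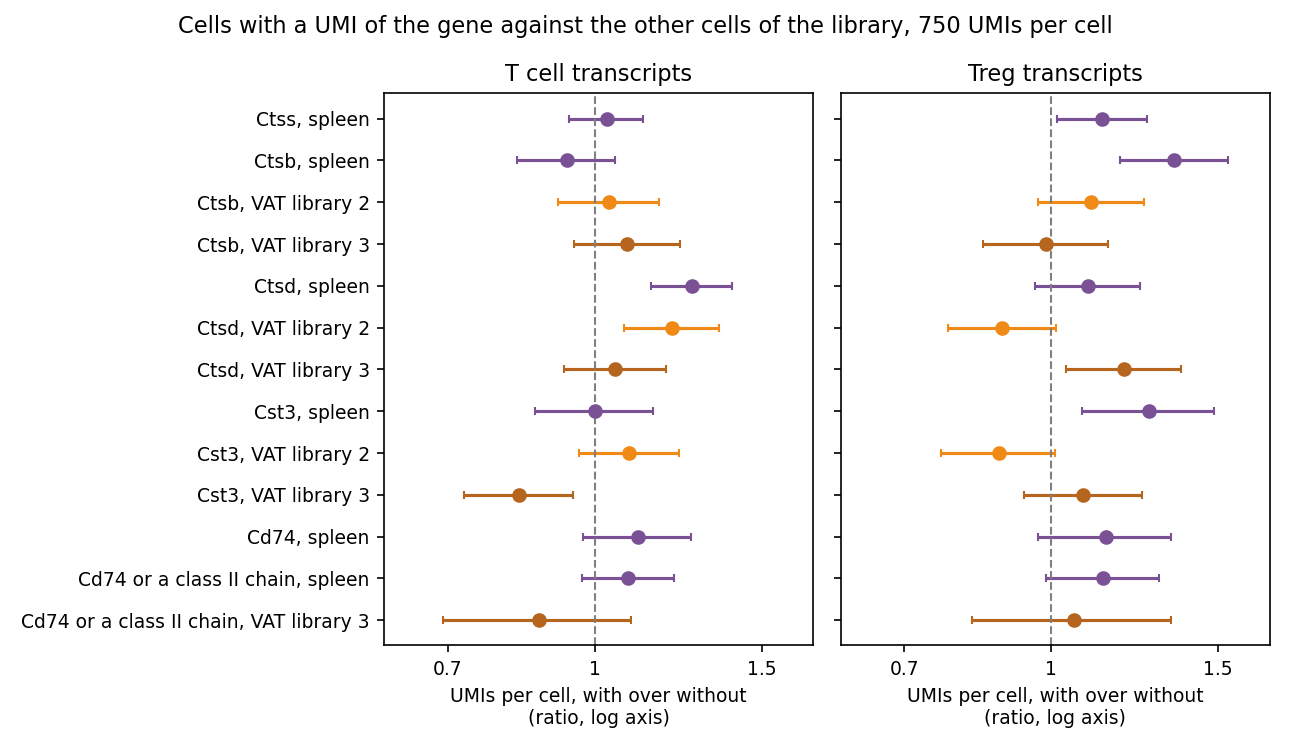
Ratio of T cell (left) and Treg (right) UMIs per cell between cells with a UMI of the named gene and the other cells of the same library (horizontal log axis), each cell thinned to 750 UMIs without the 9 genes; points are ratios, bars exact 95% counting intervals, and colours the library. Points for Ctss in spleen lie at 1.03 and 1.13, and the lowest point is Cst3 in VAT library 3 at 0.832 for T cell transcripts.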

How the data were processed

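Whole-number UMI counts per gene and cell were used as deposited by the authors; per the submitters' processing notes TopHat2, SAMtools and the mm10 build were used, with versions not given in the sources used here. UMI totals in the labels exceed the table's by 4 to 75 per cell. Each of the 1019 cells was assigned to 1 of 3 libraries by its title, and 0 columns were left unmapped. Counts were summed per library and divided by the library total (CPM). A gene with 50 or more UMIs was called at 2-fold in both VAT libraries after 0.5 was added to each count. Printed log2 ratios also have 0.5 added, and printed ratios, folds and intervals have nothing added. Poisson, Clopper-Pearson and conditional binomial intervals came from scipy 1.17.1 (numpy 2.4.6, pandas 2.3.3, Python 3.11.15, matplotlib 3.10.9), and TMM factors from edgeR 4.0.16 in R 4.3.3. Thinning was without replacement; no doublet caller was run and no cell was removed. The scripts were tested on simulated data. Gene positions are from GENCODE M21.

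The 9 genes and all lists were chosen with earlier results of these data known. The text names the 9 genes, Foxp3, Il2ra, Cd4, Cd3e and Cd3g, up to 4 genes of a list with the most UMIs and those past 2-fold, the 5 nearest to Ctss in pattern and the 5 highest and 5 lowest in spleen cells with Ctss. Any other gene was picked with its values in view. Alternatives were other totals, depths, cell subsets, minimums and folds.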

Additional observations from a re-analysis of the deposited data

How the results depend on the processing

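Of 181 alternative values none reversed a ratio of at least 2-fold, and smaller ratios could not be counted as reversed. Some smaller ratios did change direction. In VAT library 3 the Ctsd log2 ratio went from 0.0215 to -0.335 with cells thinned to 800 UMIs. The T cell ratio of cells with Ctss went from 1.03 to 0.971 in cells without Cd74 or a class II chain. Of the leading results 58 values stayed within their interval or count and 11 did not. Lower genes fell from 2 to 1 with cells thinned to 800 UMIs, in Foxp3 cells alone (130, 128 and 98 cells) and in cells without any B cell, plasma cell, macrophage or dendritic cell marker UMI (146, 233 and 232); Cd74 then had too few UMIs for the minimum. Higher genes fell from 1 to 0 in that last subset, where Cst3 was at 0.70 and 0.86 (log2), and at 3-fold. The Ctss log2 ratio of VAT library 3 was -3.79 after thinning. T cell transcripts gave 1.14 for 2 or more Ctss UMIs, and Treg transcripts 1.33 without marker cells. Macrophage markers gave 1.62 without Ms4a6c and 1.65 without Cybb as well, and B cell markers 0.175 without Cd22. The cause of these shifts was not tested. Without VAT replicate 2 or 3 the counts were 2 lower and 1 higher. They could not fall there, because the rule then asked for 2-fold in 1 VAT library in place of both. These values are among the 58 that stayed. With nothing added to the counts 207 genes in all were lower and 484 higher, and those of the 9 stayed at 2 and 1; this setting was compared after seeing the data. No paired analysis was possible because no label names an animal. The 2 tissues share only replicate number 2 in the titles, which does not show that those cells came from the same mice. Genes under the floor of 3 UMIs per library, such as H2-Aa and H2-Ab1 in VAT, are limited by depth.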
